A study of Mus musculus with 3 samples.

Results

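The regions described here are ZFP410 sites inside genes that were listed after induction of brown adipocyte differentiation and not before. They were selected on the deposited peak calls alone, as peaks of the induced ZFP410 list on chromosomes 1 to 19 and X that overlapped no peak of the untreated ZFP410 list and no IgG peak, and whose summit lay inside a protein-coding gene and more than 1 kb from both ends of every such gene. There were 1875 such sites among 7475 induced peaks, or 25.1% of the list (95% Wilson interval 24.1 to 26.1). A further 491 gene-body peaks of the induced list overlapped an untreated peak and no IgG peak, and are called kept sites. The other induced-only peaks were 1165 within 1 kb of a gene end and 2646 between genes.

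The binding map came from CUT&Tag, in which an antibody tethers a transposase to chromatin so that the DNA around the bound protein is cut and tagged. The cells were Lin-CD29+CD34+Sca1+ brown preadipocytes, sorted by flow cytometry from wild-type male C57BL/6 mice and then kept in culture. There were 3 libraries: ZFP410 in untreated cells, ZFP410 after 3 days in brown adipocyte differentiation medium, and an IgG control made from untreated cells. How many animals or cultures stood behind a library is not given in the sources used here, and IgG on induced cells was not analysed here. With 1 library a group there is no replicate check, no difference between the libraries was tested, and every interval below covers counting error only. Peak lists hold no expression values, so the identity of the cells could not be checked against marker levels.

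ZFP410 is a zinc finger protein that binds DNA and is best known for activating Chd4, which encodes a helicase subunit of the NuRD complex, through clusters of its motif. Sites away from gene ends are where enhancers, internal promoters and other regulatory elements lie, and in CUT&Tag they are also where weak signal from open chromatin is often found. Brown preadipocytes are fibroblast-like cells that make much extracellular matrix and turn into thermogenic, lipid-storing adipocytes when induced.

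Most of these sites were weak. The deposited lists give for each peak the fold over the local background at its summit, and with the p-value this returns the number of fragments stacked there. A constant is added to fragments and background before this fold is taken, so it is smaller than their plain ratio. The sites held 4 to 112 summit fragments, with a median of 7 and quartiles of 5 and 9, where kept gene-body sites of the same library held a median of 11 (quartiles 8 and 18). Induced-only sites at gene ends and between genes had medians of 7 and 6. The authors' fold had a median of 5.62 (range 1.89 to 34.5), against 9.63 at kept sites. Peaks were 141 to 1237 bp wide, with a median of 224 bp, and kept sites had a median of 397 bp. Absence from the untreated list chose the sites, so these differences in strength are a description and were not tested.

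**Figure D1:**
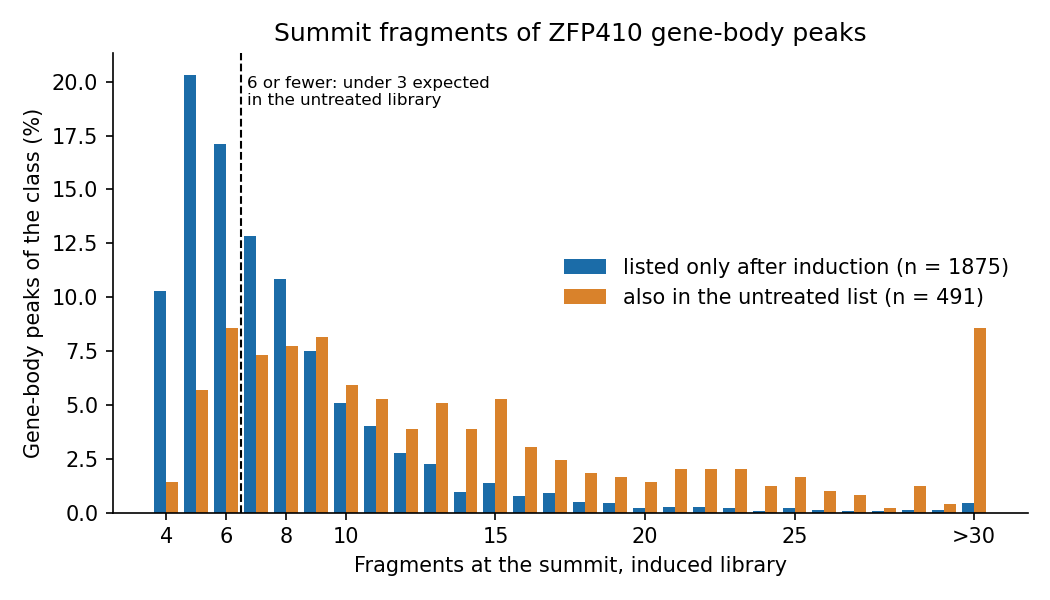
Share of gene-body peaks (y axis, percent of each class) by the number of fragments at the summit in the induced library (x axis, peaks over 30 in the last bar), for the 1875 induced-only sites and the 491 kept sites. The induced-only sites pile up at 4 to 8 fragments, and 895 of them lie left of the dashed line, where the shallower untreated library would be expected to hold under 3 fragments.

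Depth bears on every absence from the untreated list. The genome-wide background, as the fragments expected at a position, was 0.246 in the induced library and 0.110 in the untreated one, a ratio of 2.24. A site equally enriched in both libraries would therefore have held a median of 3.12 fragments in the untreated one, where the lowest called peak had 3. The expected number was below 3 at 895 of the 1875 sites (47.7%, 45.48 to 49.997), against 15.7% of kept gene-body sites (12.7 to 19.2). For 47 sites (2.51%) the Poisson chance of fewer than 3 fragments at equal enrichment was under 0.01; all held at least 19 fragments. Of these 47, only 13 stood on the genome background, and 21 stood on a local background over 5 times as high, where a call in the untreated library would need more than 3. Whether sites gained ZFP410 or only passed the caller's threshold with more reads cannot be told apart here.

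Untreated signal was close to some sites. An untreated peak lay within 500 bp of 46 sites, within 1 kb of 80 (4.27%) and within 10 kb of 246 (13.1%), and the median distance was 163 kb (162559 bp). For induced-only gene-end peaks the shares within 1 kb and 10 kb were 5.41% and 10.8%, and for those between genes 2.95% and 10.4%. The limits of the rule fell among ordinary peaks. The site nearest to an untreated peak was in Sh3d19, 13 bp away with 5 fragments. Just outside, gene-body peaks in Cc2d2a and Hsd17b12 shared 9 bp with an untreated peak and held 11 and 10 fragments. At the other limit, sites in Cobll1 and Azin1 lay 1001 and 1009 bp from a gene end with 4 and 5 fragments, and peaks in Psmd5 and Exoc3l4 lay 996 and 977 bp from one with 16 and 13.

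Annotated starts of transcription inside genes were a feature that the rule did not use. RefSeq lists several starts for some genes, and the outermost ends alone had been set aside. Of 1832 sites on chromosomes with starts in the table used here, 156 (8.52%, 7.32 to 9.88) had the summit within 1 kb of such a start, and 87 within 250 bp. Gene-body bases this close to a start made up 1.30% of all gene-body bases that could have held a site. Kept gene-body sites stood at 12.2% (58 of 474, 9.59 to 15.5), and the share over all induced peaks, gene ends included, was 22.1%. In 129 cases the start belonged to the host gene itself and in 27 to a long non-coding gene inside it. Summits lay upstream of the start at 72 sites, downstream at 83 and on it at 1. They were not stronger than other sites, with a median of 7 fragments in both sets.

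**Figure D2:**
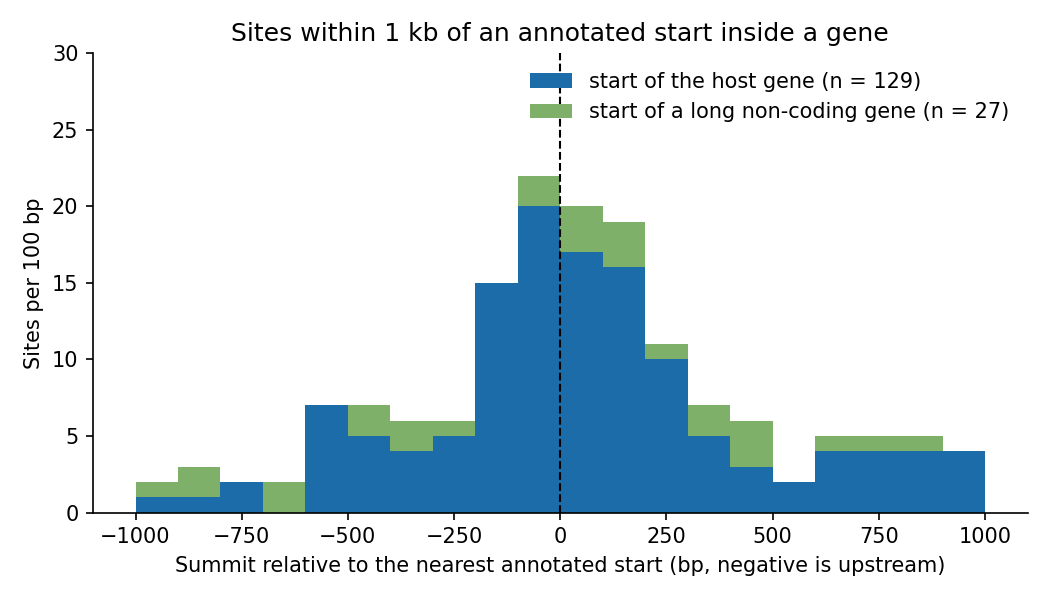
Number of sites per 100 bp (y axis) by the place of the summit relative to the nearest annotated start (x axis, bp, negative is upstream), for the 156 sites within 1 kb of a start. Starts of the host gene (129) and of long non-coding genes (27) are stacked, and 87 of the summits lie within 250 bp of it.

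For 54 sites the summit fell inside the 300-base window that reaches from 250 bases upstream to 50 downstream of the start. The 6 with the highest fold whose summit lay upstream of a protein-coding start, and whose upstream bases held a motif searched, are shown because they let the sequence under a site be read. Each run is the 250 bases before the start on the gene's strand, 5′ to 3′, from RefSeq on GRCm38.p6 (the same coordinates as mm10). Capitals mark matches on either strand to GGGCGG (the GC box of Sp and Klf factors), CCAAT (bound by NF-Y), TGACG (part of the cAMP response element), CACGTG (the E-box) or CCCATAA (part of the ZFP410 motif).
Ppt2 (chr17:34627436-34627685, minus strand): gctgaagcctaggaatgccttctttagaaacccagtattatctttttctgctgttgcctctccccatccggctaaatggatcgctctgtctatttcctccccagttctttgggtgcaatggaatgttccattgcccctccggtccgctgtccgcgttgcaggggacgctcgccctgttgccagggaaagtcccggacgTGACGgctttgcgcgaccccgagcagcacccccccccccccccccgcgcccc
C87436 (chr6:86438126-86438375, plus strand): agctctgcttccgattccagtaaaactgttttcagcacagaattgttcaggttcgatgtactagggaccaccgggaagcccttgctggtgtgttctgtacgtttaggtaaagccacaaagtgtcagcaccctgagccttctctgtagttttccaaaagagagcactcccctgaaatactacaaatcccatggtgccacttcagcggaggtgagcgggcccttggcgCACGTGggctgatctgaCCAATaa
Tlcd3b (chr7:126816635-126816884, plus strand): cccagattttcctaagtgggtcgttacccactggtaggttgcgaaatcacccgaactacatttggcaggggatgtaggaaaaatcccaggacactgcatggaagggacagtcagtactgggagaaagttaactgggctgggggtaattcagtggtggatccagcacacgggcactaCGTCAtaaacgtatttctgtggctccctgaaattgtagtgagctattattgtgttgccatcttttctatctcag
Colgalt1 (chr8:71610918-71611167, plus strand): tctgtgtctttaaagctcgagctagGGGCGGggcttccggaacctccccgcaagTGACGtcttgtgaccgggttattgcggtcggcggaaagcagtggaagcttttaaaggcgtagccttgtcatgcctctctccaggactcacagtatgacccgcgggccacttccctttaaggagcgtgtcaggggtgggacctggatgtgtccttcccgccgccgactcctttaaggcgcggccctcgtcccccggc
Arntl (chr7:113207215-113207464, plus strand): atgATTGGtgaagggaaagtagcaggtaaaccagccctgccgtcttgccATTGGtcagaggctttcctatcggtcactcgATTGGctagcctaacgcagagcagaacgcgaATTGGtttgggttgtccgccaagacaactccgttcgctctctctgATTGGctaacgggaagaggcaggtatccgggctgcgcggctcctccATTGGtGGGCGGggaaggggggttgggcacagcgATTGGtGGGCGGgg
Aph1b (chr9:66795424-66795673, minus strand): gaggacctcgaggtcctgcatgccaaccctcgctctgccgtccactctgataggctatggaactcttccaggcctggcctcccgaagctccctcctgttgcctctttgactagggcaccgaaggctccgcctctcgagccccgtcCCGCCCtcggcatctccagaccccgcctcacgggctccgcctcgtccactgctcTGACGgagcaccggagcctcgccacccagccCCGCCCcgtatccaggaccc

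Ppt2, which encodes a lysosomal thioesterase, had 16 summit fragments, 159 bp upstream of its internal start. C87436 had 18, at 28 bp upstream, and Tlcd3b, a gene of ceramide synthesis, had 13 at 103 bp upstream. Colgalt1, whose enzyme adds galactose to collagen, had 12 at 25 bp upstream. The site in Arntl, the gene for the clock factor BMAL1, had 11 fragments, 189 bp upstream of an internal start. Its summit lay 28805 bp from the nearest end of any protein-coding gene. Its window held the most matches of the 6, with 7 inverted CCAAT boxes and 2 GC boxes. Aph1b, encoding a subunit of gamma-secretase, had 25 fragments at 233 bp upstream, over a raised local background that left a fold of 9.54. None of the 6 windows held CCCATAA.

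Across all 54 windows the letters CCCATAA were in 0, which at a limit of 3 counts allows a share of up to 5.56% (Wilson upper bound 6.64%), and in 716 of 32619 windows of RefSeq starts (2.2%). They were in 2 of 28 windows under kept gene-body sites and in 6 of 456 under induced-only gene-end sites. The GC box was in 27 of 54 windows (50%, 37.1 to 62.9), against 35.9% of all windows, 53.6% of those under kept gene-body sites and 70.8% of those under induced-only gene-end sites. CCAAT was in 46.3% (33.7 to 59.4) against 37.6% of all windows, TGACG in 27.8% (17.6 to 40.9) against 20.9%, and CACGTG in 5.56% (1.91 to 15.1) against 7.20%. The windows held a median of 60.5% G and C and 20.5 CpG pairs, where all windows held 53.0% and 7. These are matches of letters and not measured binding, and the part of base composition in them was not tested.

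Other start sites of the same kind included that of Cpt1a, the gatekeeper enzyme of mitochondrial fatty acid oxidation, with 8 fragments 110 bp downstream of an internal start (chr19:3323261-3323513). Rbm15, a subunit of the m6A writer complex, had 10 fragments 25 bp downstream of one (chr3:107333059-107333403). Both lay just past the 1 kb limit, at 1085 and 1196 bp from an end of the gene. The sites of Nfyc, a subunit of NF-Y, of Socs3, a brake on cytokine signalling, and of Rfx1, named after their values were seen, had 8, 11 and 12 fragments at 174, 320 and 350 bp from a start. Ends of genes that are not protein-coding were near 71 sites (3.79%, 3.01 to 4.75), beside 4.68% of kept gene-body sites (3.14 to 6.93), 2.18% of gene-body bases and 7.58% of all induced peaks. The genes at those ends were in 57 cases long non-coding, in 7 pseudogenes and in 3 miRNA genes. The nearest were Gm10910 in Prdm10, whose end was under the summit of a site of 8 fragments, Gm39291 in Mtmr2, 21 bp from a site of 10, and Gm39795 in Gsn, 21 bp from a site of 13. The 3 miRNA genes, named after their values were seen, were Mir148a, 929 bp from the summit of a site of 11 fragments in the predicted gene Gm38821, Mir199a-1, 405 bp from one of 10 in Dnm2, the gene for dynamin 2, and Mir6976, 730 bp from one of 8 in Srf, the serum response factor gene.

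Along the host gene the sites lay more often towards the transcription start. Strand could be assigned for 1478 sites with a single host, and 869 of them (58.8%, 56.3 to 61.3) lay before the midpoint of the gene. Kept sites stood at 55.4% (50.3 to 60.3). Of 10 equal parts of the gene the third held 13.0% of the sites (11.4 to 14.8) and the last 4.74% (3.77 to 5.94). Among these, 286 sites lay within 5 kb of an end of any protein-coding gene, which need not be an end of the host. Of the 286, 210 lay before the midpoint of their host (73.4%, 68.0 to 78.2), against 56 of 91 kept sites (61.5%, 51.3 to 70.9). Without sites within 1 kb of an annotated start, the share before the midpoint was 55.8% (53.1 to 58.5), against 50.9% of kept sites (45.5 to 56.3). For those within 5 kb of any gene end it was 64.1% (127 of 198, 57.3 to 70.5), against 46.6% of kept sites (27 of 58, 34.3 to 59.2).

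**Figure D3:**
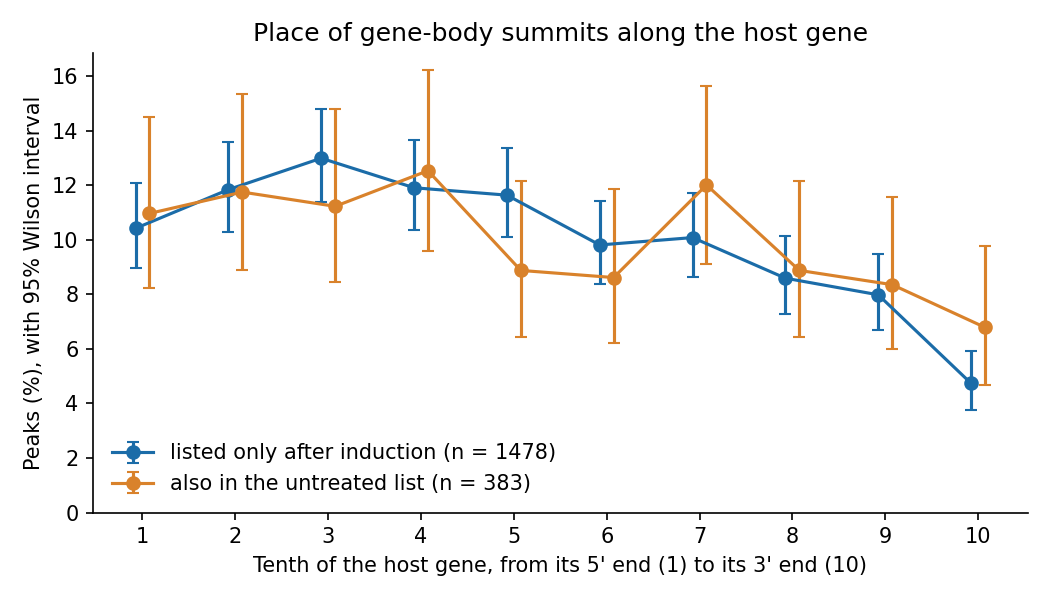
Share of gene-body summits (y axis, percent, bars are 95% Wilson intervals) in each of 10 equal parts of the host gene from its 5′ end to its 3′ end (x axis), for 1478 induced-only and 383 kept sites. The induced-only sites fall from 13.0% in the third to 4.74% in the last, and the kept sites overlap them within their intervals.

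The sites were spread over long distances. The median distance to the nearest gene end was 22242 bp (quartiles 7398 and 55106), against 17692 bp at kept sites. There were 139 sites (7.41%) at 1 to 2 kb from a gene end, 747 (39.8%) at 20 to 100 kb and 251 (13.4%) farther in. The site farthest from any end was in Cntnap2, a neuronal adhesion gene, 1076730 bp in, with 12 fragments (chr6:46224571-46224834). Exons and introns were not given in the gene table used, so they were not told apart. Another site lay within 10 kb of 321 sites (17.1%), and a kept site of any class within 10 kb of 144 (7.68%). Density over gene bodies was 1.90 sites per Mb. It was highest on chromosome 11, at 2.77, and lowest on the X chromosome, at 0.891 (39 sites) of these male cells; the part of copy number in this was not tested.

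In all 1456 genes hosted a site, or 7.61% of the 19138 protein-coding genes with gene-body bases that could hold one. A single site was found in 1143 of them, 2 sites in 230, 3 in 49, 4 in 20 and 5 or more in 14. Hosts were long. Their median length was 95.5 kb, against 21.4 kb for all 19138 genes, and the share of genes with a site rose from 1.09% of those up to 10 kb long to 40.8% of those over 300 kb. Per Mb of gene body the order turned around, from 3.13 sites in the shortest class to 1.07 in the longest.

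**Figure D4:**
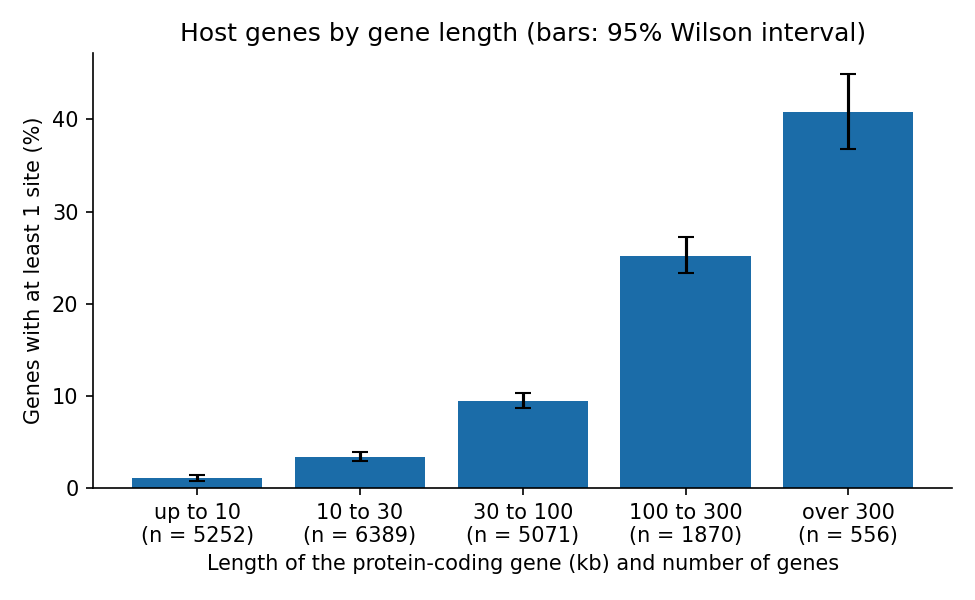
Share of protein-coding genes that hosted at least 1 site (y axis, percent, with 95% Wilson intervals) by gene length (x axis, kb, with the number of genes in each class). The share climbs from 1.09% to 40.8%, so counts over a gene list have to be read against the length of its genes.

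Kept gene-body sites were more frequent in hosts than in other genes. A kept gene-body site was found in 156 hosts (10.7%, 9.23 to 12.4) and in 1.62% of genes without a site. Within the class of 100 to 300 kb the shares were 14.0% (11.1 to 17.4) and 4.58% (3.60 to 5.80). Above 300 kb they were 12.3% (8.67 to 17.2) and 9.42% (6.72 to 13.1), with intervals that overlapped. An induced gene-end peak was present at 151 hosts (10.4%, 8.91 to 12.04) and at 9.21% of other genes (8.79 to 9.64), beside 9.3% of all, a difference within the intervals. Among genes up to 10 kb the shares were 26.3% (15 of 57, 16.6 to 39.0) and 8.10%, and among those of 10 to 30 kb 16.1% (11.8 to 21.5) and 10.3%. In the longer classes the intervals overlapped, with 11.6% and 10.3% at 30 to 100 kb, 7.84% and 6.44% at 100 to 300 kb, and 3.52% and 2.43% above. An untreated gene-end peak was present at 77 hosts (5.29%, 4.25 to 6.56), beside 4.09% of all genes.

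The site of highest fold was in Aspscr1, whose product TUG holds the glucose transporter GLUT4 in intracellular vesicles until insulin releases it. This peak (chr11:120682433-120683003) held 42 fragments on the genome background, for a fold of 34.5 and rank 33 of the induced list, and lay 9675 bp inside the gene. Equal enrichment would give 18.7 fragments in the untreated library, whose nearest peak lay 15030 bp away. Aspscr1 also carried a kept gene-body site and an induced gene-end peak.

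The next 5 sites by fold held 23 to 29 fragments. Aff3, of the AF4 family of transcription elongation factors, had 29 at chr1:38292041-38292392 (fold 21.4). Lgr4, a receptor for R-spondins that boosts Wnt signalling, had 25 at chr2:109920600-109920944 (fold 20.9), 3154 bp from its start. Iqck had 27 at chr7:118929876-118930348 (fold 19.9). Plekhm3 and Trub2, the latter a pseudouridine synthase of mitochondria, had 23 each at chr1:64932809-64933258 and chr2:29772051-29772576 (fold 19.3). These genes share no pathway that was listed, and the untreated peak closest to any of the 5 was 88607 bp away, at Trub2.

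The remaining sites of the 12 with highest fold held 20 to 22 fragments. Eml1, a microtubule-binding protein gene, and Atoh8, a basic helix-loop-helix factor gene, had 22 fragments each (fold 18.5). Sytl3, an effector of Rab27 in vesicle transport, and Txk, a kinase of the Tec family, had 21 each (fold 17.7). Zdhhc1, a palmitoyltransferase gene, had 22 over a local background 1.40 times the genome level (fold 17.1). The site in Slc38a6, an amino acid transporter gene, had 20 fragments (fold 16.9) and was the only one of the 12 with an untreated peak within 1 kb, at 813 bp.

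Sites with many fragments were not always those of high fold. The most, 112, were in Lama1, a laminin gene (chr17:67741380-67741525), over a local background 193 times the genome level, for a fold of 2.33 and rank 7424. Arhgap10 with 58 and Gramd1b with 47 stood on backgrounds 114 and 99.0 times the genome level, with folds of 2.03 and 1.89. The peak shared by Coro7 and Vasn had 43 fragments at a fold of 5.06. Of the 5 sites least expected to be missed by depth, only that of Aspscr1 stood on the genome background. Over all sites 62 (3.31%) exceeded 5 times that background, as did 3.05% of kept gene-body sites, and an IgG peak lay within 10 kb of 17.

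Several hosts held runs of sites. Matn2, encoding the matrix protein matrilin-2, had 6 sites of 8 to 18 fragments in 130 kb (length 129.562 kb). Abtb2 had 6 of 5 to 19 fragments, and Iqgap1, a scaffold of the actin cytoskeleton, had 6 of 4 to 9. Tnxb, encoding tenascin-X of the connective tissue matrix, had 5 of 8 to 14 fragments in 59.4 kb, and Camta1, a transcription factor gene, 5 of 6 to 16 in 802 kb. Among the 6 named genes with most sites the density was highest in Sfi1, a centrosome gene, with 8 sites of 5 to 15 fragments in 71.5 kb. Their local backgrounds had a median of 3.11 times the genome level and reached 12.4 times. Of the 8 sites, 2 stood on the genome background, where 73.1% of all sites did. Sfi1 also carried 3 kept gene-body sites. Col4a1, Emilin2, Sh3pxd2a and Zfp978 also had 5 sites and were named after their values were seen.

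A pair of hosts had nearly equal lengths and similarly spaced sites. Loxl2, whose enzyme cross-links collagen, and the predicted gene Gm21451 on the same chromosome are 87143 and 87037 bp long, and each had 4 sites. A summit lay 27148 bp from the lower end of each gene, with 16 and 18 fragments. The nearest untreated peak lay 17720 bp away from another site in both, and 2033 bp away from a further one in both. Sequence identity was not measured. Where genes are near-identical copies reads can be placed in either, so the sites of Loxl2 and Gm21451 are reported as uncertain. Clone-named and predicted genes were the only hosts of 67 sites, 24 of them on chromosome 8. The highest count, 9, was in 4930467E23Rik, and 9530057J20Rik, Gm15319 and Gm21119, which like it lie between positions 19704311 and 20646749 of chromosome 8, had 5 each. Without these sites, over the same gene-body bases, the density on chromosome 8 was 2.19 sites per Mb in place of 2.69. Here the sites left out were all those whose only hosts were clone-named or predicted genes.

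Genes of the extracellular matrix and preadipocyte list had the highest density of the 13 lists. Of its 45 genes 12 were hosts (26.7%, 16.0 to 41.0), where genes of the same length classes would give 4.59. They held 26 sites, or 9.97 per Mb (exact 95% Poisson interval 6.51 to 14.6), against 1.90 over all gene bodies. The 1.90 was not matched for gene length, and over the length classes density ran from 3.13 to 1.07 per Mb. The interval counts each site as independent, though Col4a1 held 5 of the 26, Loxl2 4, and Col4a2 and Col12a1 3 each. It may therefore be too narrow. Without Loxl2 the density was 8.72 (5.47 to 13.2). Kept gene-body sites were also dense there, at 2.30 per Mb against 0.498 over all genes. An induced gene-end peak was present at 2 of the 45 genes (4.44%), beside 9.3% of all genes.

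**Figure D5:**
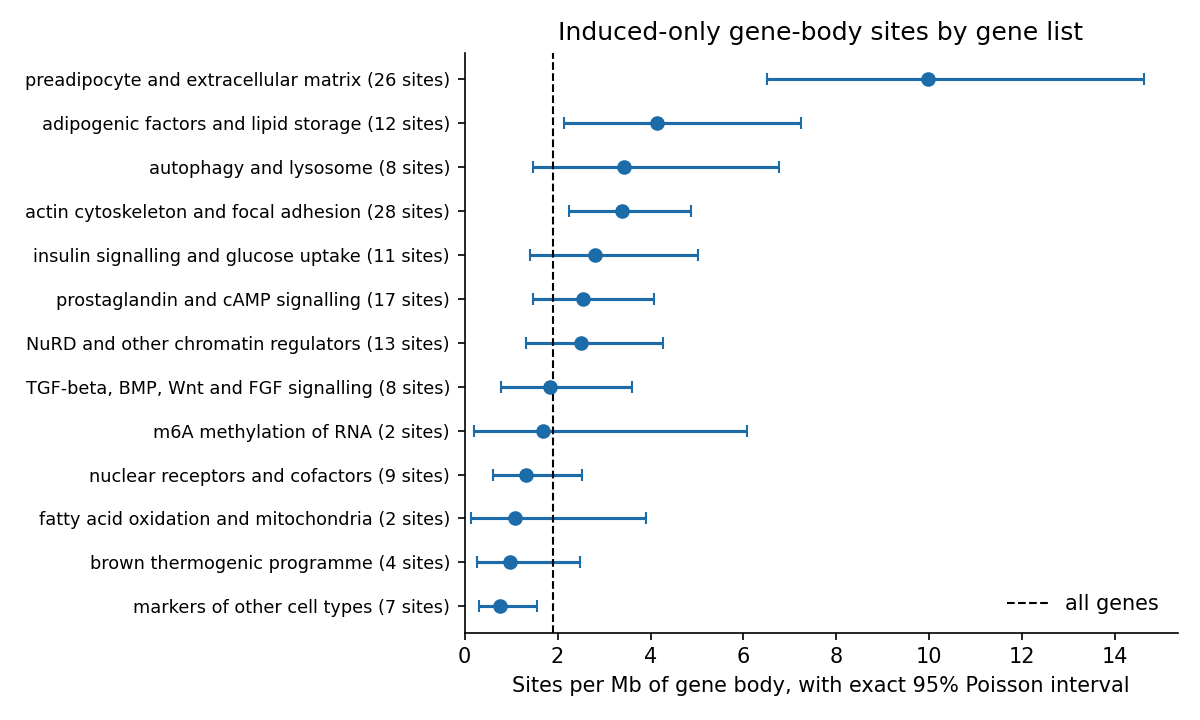
Sites per Mb of gene body (x axis, points with exact 95% Poisson intervals) for 13 gene lists (y axis, with the number of sites). The dashed line is the density over all genes, 1.90 per Mb, which is not matched for gene length. The list of preadipocyte and matrix genes stands at 9.97 and the list of markers of other cell types at 0.755.

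Col4a1 and Col4a2, the neighbouring genes of the main basement membrane collagen, had 5 sites of 5 to 11 fragments and 3 sites of 6 to 14. Col15a1, another basement membrane collagen, had 1 of 13 (chr4:47294048-47294557), Col12a1 had 3 and Col6a3 1. Fbn1, the fibrillin of elastic microfibrils, had 2, and Gsn, the actin-severing protein gelsolin, 2 of 15 and 13 fragments. Timp3 and Timp2, inhibitors of matrix metalloproteases, had 2 and 1, and Adamts2, a procollagen protease gene, had 1 of 4 fragments. Pdgfra, the receptor that marks fat progenitors, had 1 of 5 fragments, 3179 bp from a gene end, while the preadipocyte markers Pdgfrb, Ly6a, Cd34 and Dlk1 hosted none. In this list and those that follow, genes beyond the first pair by fold were named after their values were seen.

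Adipogenic and lipid storage genes stood at 10 hosts of 43 (23.3%, 13.2 to 37.7), where their length classes would give 4.50, and 4.15 sites per Mb (2.14 to 7.25). Their median length was 25.8 kb, and all genes of 10 to 30 kb held 2.39 sites per Mb, within that interval. The leading site was in Tcf7l1, a repressing factor of the Wnt pathway, with 13 fragments at chr6:72655300-72655795, 307 bp from the start of the long non-coding gene Gm31391. Acaca, the acetyl-CoA carboxylase of fatty acid synthesis, had 9 (chr11:84179495-84179699). Cd36, a fatty acid carrier, Gpam, of triglyceride synthesis, Stat5b and the preadipocyte factor Ebf1 had 8 each at best. Fabp4, Rxra, Ebf2 and Srebf2 had 4 or 5. None of the 10 had a ZFP410 gene-end peak in either list, beside 9.3% of all genes in the induced list and 4.09% in the untreated one. Of the 43 listed genes 4 had an induced gene-end peak (9.30%). At a −log10 q of at least 5, 6 of the 43 remained hosts (14.0%), beside 3.88% of all genes, a share not matched for length.

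The brown thermogenic list did not stand out, with 3 hosts of 36 (8.33%, 2.87 to 21.8), beside 4.66 at their length classes, and 0.972 sites per Mb (0.265 to 2.49). They were Mecom, a zinc finger gene related to Prdm16, with 8 fragments at best, Ppargc1a, the coactivator of mitochondrial biogenesis, with 7 at chr5:51591578-51592089, and Zfp516 with 6. Ucp1, Prdm16 and Dio2 hosted none. Fatty acid oxidation and mitochondrial genes had 2 hosts of 46 (4.35%), beside 3.35 at their length classes, Cpt1a and Mcu, the mitochondrial calcium channel, with 8 fragments each. In contrast 11 of these 46 genes had an induced gene-end peak (23.9%, beside 9.3% of all genes). Over the 13 lists this share ran from 0% in markers of other cell types to 24.6% in chromatin regulators (14 of 57).

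Genes of the actin cytoskeleton and focal adhesion had the most hosts, 19 of 51 (37.3%, 25.3 to 51.0), but they are long, with a median of 125 kb (124.712). Their length classes would give 9.94 hosts, and their density was 3.38 per Mb (2.24 to 4.88). Vav2, an exchange factor of small GTPases, and Specc1 led by fold with 13 fragments each. Parva, an adaptor of integrin-linked kinase, and Tns1 had 3 sites each. Arhgap10, met above for its 58 fragments, is also on this list. Actb itself had a site of 7 fragments, 2041 bp from a gene end.

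Insulin signalling and glucose uptake genes had 8 hosts of 44 (18.2%, 9.51 to 32.0), where length classes would give 5.92, at 2.81 sites per Mb (1.40 to 5.03). After Aspscr1 with 42 fragments the most fragments were in Hk2, a hexokinase gene, with 11. Igf1r and Tbc1d1 had 8, Igf2r and Rapgef1 7 and Pik3r1 4. Prostaglandin and cAMP signalling had 12 hosts of 50 (24.0%, 14.3 to 37.4), at 2.54 per Mb (1.48 to 4.07), where length classes would give 7.50. Pde4d, a cAMP phosphodiesterase gene, and Prkar2a, a regulatory subunit of protein kinase A, had 9 each, and Ptges, the prostaglandin E synthase gene, 2 sites of 8. Adcy7 had 21 at a fold of 3.50. Ptger3, the EP3 receptor gene, hosted none.

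Chromatin regulators had 8 hosts of 57 (14.0%), close to the 8.21 of their length classes. Arid1b and Arid1a, alternative subunits of the BAF remodelling complex, led with 19 (chr17:5180044-5180407) and 14 fragments (chr4:133688417-133688717), and Chd4 had 11. The Chd4 site (chr6:125097735-125098927) lay 2713 bp inside the gene and only 248 bp from an untreated peak, at a gene with gene-end peaks in both lists. Nuclear receptors and cofactors had 5 hosts of 45 (11.1%, 4.84 to 23.5), where length classes would give 7.37. They were led by Rora with 17 fragments, 342532 bp inside the gene, and Ppard with 13. TGF-beta, BMP, Wnt and FGF signalling had 6 of 52, where length classes would give 6.92, among them Tead1 with 9 and Smad3 with 7. The m6A list had Rbm15 and Igf2bp2, 2 of 24, beside 2.13 at their length classes. Autophagy and lysosome genes had 5 of 44, beside 3.52, with Atg7 at 4 sites of up to 7 fragments and Atg10 at 1 of 6.

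Markers of other cell types were hosts at 5 of 40 (12.5%, 5.46 to 26.1), beside 6.36 at their length classes and 0.755 sites per Mb (0.303 to 1.56). All genes over 300 kb held 1.07 per Mb, within that interval. The hosts included the very long neuronal genes Cntnap2, Dlgap2 and Nrxn3 and the macrophage gene Adgre1, with 4 to 12 fragments at best. None of the 40 had an induced gene-end peak, beside 9.3% of all genes. Lists hold long and short genes in different shares, members of a list can lie side by side, as Col4a1 and Col4a2 do, and the lists were not tested against each other.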

How the data were processed

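CUT&Tag libraries of 1 sample a group were read from 3 MACS2 peak lists. The submitters' processing notes name mm10, MACS2 2.1.1, Bowtie2 2.2.6 and Picard; peak names in the deposited files carry a q threshold of 0.1. How duplicates were handled, and against which control peaks were called, is not given in the sources used here. Per peak the authors' lists give a score (10 times the −log10 q, not used further), a fold (ratio) over local background, −log10 p and −log10 q values, and a summit. The fold was read as a ratio taken after 1 was added to both fragments and background. In the main results fold, p and q were used within a list only. Between lists, the background solved from them and the lowest called fragment number were set side by side. Some of the alternatives applied a common limit on q or fold to all 3 lists, which differ in depth.

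Summit fragments and local background were solved from the deposited fold and −log10 p, with a gap under 0.001 for 7474 of 7475 induced and 3255 of 3256 untreated peaks; the step was tested on simulated data. Lists overlapped at 1 bp or more. Genes came from RefSeq on GRCm38.p6, and strand, starts and sequences from a RefSeq start table that was not used for chromosome 18. Shares have 95% Wilson intervals. Python 3.11.15, pandas 2.3.3 and scipy 1.17.1 were used.

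The sites, gene lists and naming rule were chosen with earlier results of these data known. The rule took the 12 sites of highest fold, the 6 hosts with most sites (predicted genes skipped), up to 2 hosts a list, sites at the limits, the 5 least likely to be missed by depth, and the 3 nearest to a non-coding gene end. A search of the peaks for the ZFP410 motif needs genome sequence and was not run. Alternative thresholds, overlaps and windows were tried. Some items covered by this rule are not reported here.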

Additional observations from a re-analysis of the deposited data

How the results depend on the processing

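No paired analysis was possible because each group had 1 library. The share near a non-coding gene end stayed within its interval under each alternative computed for it. Where every list was limited to peaks of −log10 q 5 or more, there were 1007 sites in 878 hosts with a median of 9 fragments; 83.3% would fall under the lowest called untreated number, since that number rises too, and 5.58% of hosts had a gene-end peak, beside 4.85% of all genes at that limit. With the induced list alone so limited there were 835 sites in 742 hosts with a median of 9 fragments; 0% fell under that number, since such peaks hold more fragments by construction, and 6.06% of hosts had a gene-end peak, beside the same 4.85%. With every list limited to a fold of at least 5 the median was 8 fragments and 82.3% fell under the lowest called number. At that limit 7.16% of hosts had a gene-end peak, beside 6.47% of all genes. Where 50% of both peaks had to overlap, 44.3% fell under that number, and among sites on the genome background 52.8% did. With gene-end windows of 500 bp and 2 kb, by construction, the median distance to a gene end was 19810.5 and 25188 bp, and 12.3% and 5.84% of sites lay near an annotated start. Counting an untreated peak within 500 bp as shared, or scaling by relative depth (2.01), moved none of the values computed under it by more than its interval or 1.5 times. The start measure, the lists without Loxl2, hosts at the stricter q, positions without start sites and chromosome 8 without sites of clone-named hosts were added after seeing the data. The search for the ZFP410 motif with and without mismatches was not run. Depth limits what absence from the untreated list can show.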
